A study of Mus musculus with 7 samples.

Results

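The genes described here are 9 that cells switch on in response to type I interferon: the signalling factor gene Stat2, the interferon regulatory factor genes Irf1 and Irf7, and Ifit1, Ifit3, Isg15, Rsad2, Usp18 and Oasl2. They were taken by name from the platform annotation, which gave 12 probe sets of the 45037 on each array. Of these, 11 were annotated to 1 of the genes alone and covered 8 of the 9, so that 8 of 18193 genes could be tested. The only probe set listed for Isg15 was also listed for Gm9706, and its values are given as those of that shared probe set. The arrays were Affymetrix Mouse Genome 430 2.0 arrays of luminal cells, the secretory epithelium of the prostate, sorted from mice. The 4 T-ETV1 arrays (replicates A to D) came from mice in which the endogenous Tmprss2 promoter drives a cDNA of the human ETS factor ETV1. The 3 WT arrays (replicates A to C) came from wild-type mice. All cells were sorted as CD49f+ and Sca1- from the fraction without CD31, CD45 and Ter119, and only the T-ETV1 cells were in addition GFP+, so genotype and this gate cannot be told apart. The series text speaks of biological replicates, and the sources used here give neither the age of the mice nor how many went into an array.

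Type I interferons bind a receptor made of IFNAR1 and IFNAR2, which activates the kinases JAK1 and TYK2. These phosphorylate STAT2 and its partner, which join IRF9 and bind the interferon-stimulated response element (ISRE) in the promoters of target genes. IRF7 then amplifies interferon production, IFIT proteins and RSAD2 (viperin) act against viruses, ISG15 is a ubiquitin-like modifier, and USP18 removes ISG15 from proteins and dampens the receptor. IRF1 responds most strongly to interferon gamma, through a gamma-activated site (GAS).

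The promoters of these genes were searched for the letters of the ISRE and the GAS, and binding of factors to them was not measured. RefSeq promoters on GRCm38.p6, from 250 bases before to 50 bases after the annotated start, were at hand for 8 of the 9 genes, all but Usp18. The ISRE core was taken as GAAA and GAAA with any 2 bases between them, on either strand. Of these 8 genes, 5 held it (Ifit1, Ifit3, Isg15, Rsad2 and Stat2), against 3.99% of all 27025 genes with a promoter. It was found in 40 of the 107 other interferon pathway genes with a promoter. The longer form, in which CT follows the second GAAA, thus contains the core. It occurred in Ifit1 and Ifit3 alone of the 8, against 0.303% of all genes with a promoter. The GAS form was TTC and GAA with any 3 bases between them, the same on both strands. This form was found in Irf1 alone, against 9.55% of all genes with a promoter. Neither form of the ISRE nor the GAS was in the windows of Irf7 and Oasl2, which says only that these letters are not there. Stretches of 120 bases upstream of the start follow, written 5′ to 3′ along the gene's strand, with the ISRE core in capitals, or in Irf1 the GAS. They lie at chr19:34640740-34640859 (plus strand) for Ifit1, chr19:34583335-34583454 (plus) for Ifit3, chr12:26456508-26456627 (minus) for Rsad2, chr4:156200826-156200945 (minus) for Isg15 and chr11:53769869-53769988 (plus) for Irf1.
Ifit1: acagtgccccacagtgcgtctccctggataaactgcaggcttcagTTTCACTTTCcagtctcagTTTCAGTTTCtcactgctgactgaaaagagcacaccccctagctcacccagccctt
Ifit3: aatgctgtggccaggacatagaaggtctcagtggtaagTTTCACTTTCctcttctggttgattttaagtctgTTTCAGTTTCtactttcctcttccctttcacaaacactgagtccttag
Rsad2: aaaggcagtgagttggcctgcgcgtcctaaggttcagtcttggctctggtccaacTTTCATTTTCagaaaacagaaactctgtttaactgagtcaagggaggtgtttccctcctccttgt
Isg15: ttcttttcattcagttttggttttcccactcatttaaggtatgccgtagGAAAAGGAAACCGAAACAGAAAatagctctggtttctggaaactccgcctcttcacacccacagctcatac
Irf1: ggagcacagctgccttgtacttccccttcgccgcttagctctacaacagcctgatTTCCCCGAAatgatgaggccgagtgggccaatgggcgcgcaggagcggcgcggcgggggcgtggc
Ifit1 and Ifit3 each held 2 core matches, which, like the 1 match of Rsad2, read on the opposite strand (TTTC first). The 3 core matches of Isg15 overlapped each other and formed 1 run.

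The arrays T-ETV1 C and WT C stood apart from the rest of their groups in their transcripts of macrophages and myeloid cells. Lyz2, lysozyme of myeloid cells, had an intensity of 4962 in T-ETV1 C and 5163 in WT C, and at most 147 in the other arrays. The 2 arrays were less alike over the 15 macrophage and myeloid genes listed, which summed to 11955 in T-ETV1 C and 25749 in WT C. The differences of the interferon response genes and the counts over gene lists are given with and without WT C, except where a list's count of positive differences was the same without it.

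None of the interferon response genes passed the test of T-ETV1 against WT, while the intensities of Ifit1, Ifit3 and Rsad2 spanned more than 6-fold between arrays of the same genotype. By limma with Benjamini-Hochberg adjustment over 18193 genes, 0 of the 8 passed an adjusted p of 0.05, as did 0% of all genes. At an unadjusted p under 0.05 there were 0 of the 8 and 6.12% of all genes. In 0 of the 8 did the arrays of the groups fail to overlap, against 6.32% of all genes. The log2 differences, T-ETV1 minus WT on the log2(intensity + 16) scale, lay between -0.81 (Ifit3) and 0.13 (Stat2), with adjusted p values of 0.932 to 0.991. Their median was -0.18, beside -0.03 for all genes. WT C was the highest of the 3 WT arrays in 8 of the 8 genes, against 46.7% of all genes. T-ETV1 B was the highest of the 4 T-ETV1 arrays in 6 (27.8% of all genes) and T-ETV1 C the lowest in 6 (22.9% of all genes). In these bulk samples, fewer cells of a type and less RNA per cell cannot be told apart.

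**Figure D1:**
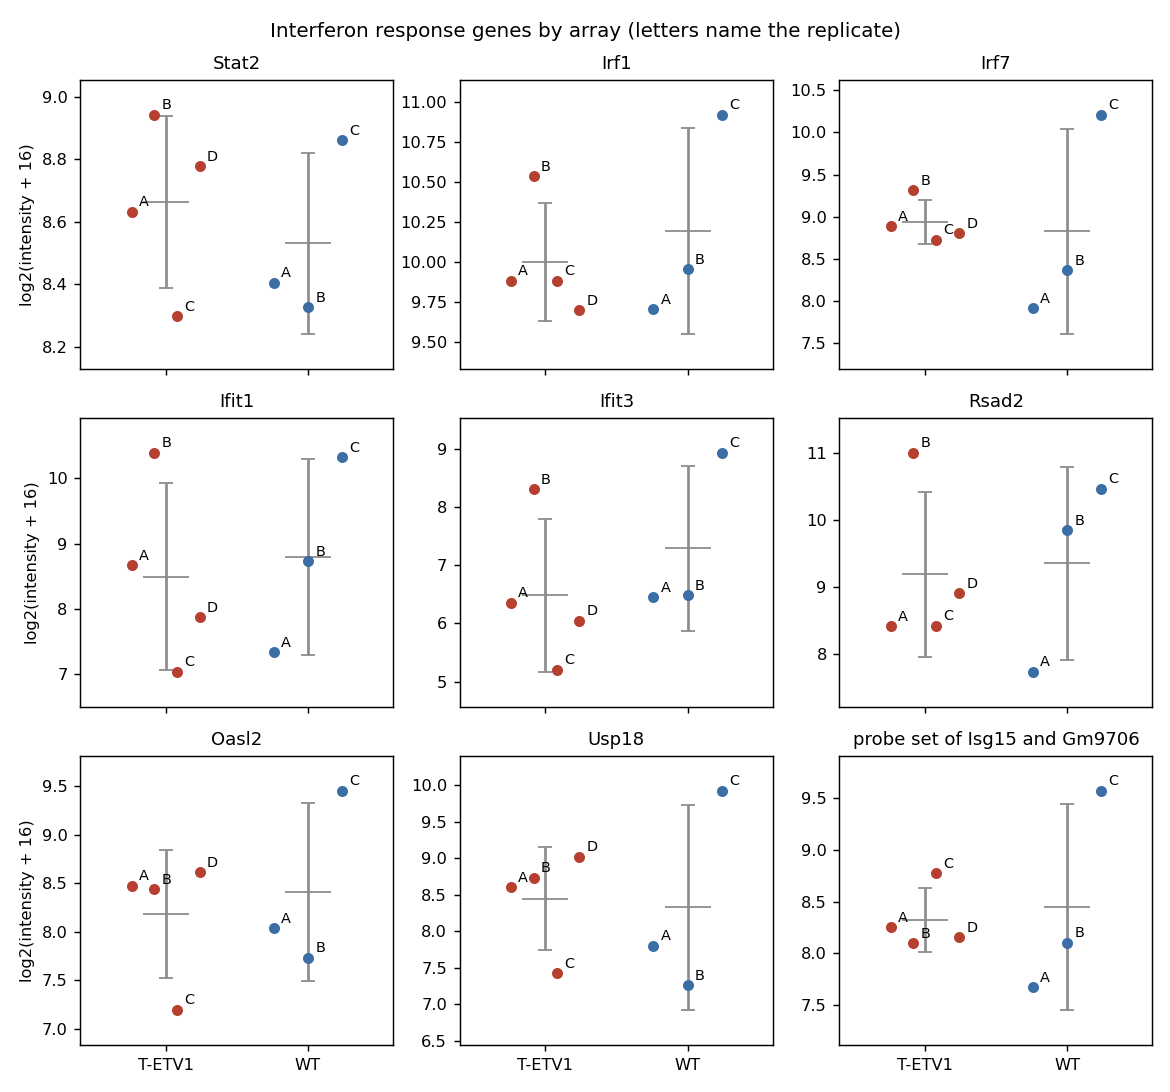
Values of log2(intensity + 16) of the 8 interferon response genes and of the probe set shared by Isg15 and Gm9706, for 4 T-ETV1 arrays (red, left) and 3 WT arrays (blue, right). Letters name the replicate, and grey bars give the mean and SD of each group; axes differ between panels. WT C is the highest WT array in every panel, and the groups overlap in every panel.

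Among the transcription factors, Stat2, the STAT subunit particular to the type I and type III interferon pathways, varied least. Its intensity was 381, 476, 299 and 423 in T-ETV1 arrays A to D, against 323, 305 and 449 in WT arrays A to C. T-ETV1 B and WT C were high and T-ETV1 C was low, and the groups overlapped. The log2 difference was 0.13 ± 0.20 (SE; 95% interval -0.35 to 0.62; limma adjusted p = 0.954), and it was 0.30 ± 0.20 without WT C. A dimmer probe set of Stat2 had the opposite sign (-0.22 ± 0.30), with T-ETV1 C again the lowest array, at 49.4.

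Irf1, which encodes a regulatory factor induced by interferon gamma as well as type I interferon, was highest in WT C. Its intensity was 929, 1469, 929 and 816 in T-ETV1 arrays A to D, against 819.7, 976 and 1922 in WT arrays A to C. T-ETV1 B and WT C stood above the other 5 arrays, which were close together. T-ETV1 differed from WT by -0.19 ± 0.34 on the log2 scale (adjusted p = 0.961), and by 0.17 ± 0.26 without WT C.

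Irf7, the amplifier of the interferon response, had intensities of 457, 619.5, 408 and 431 in T-ETV1 arrays A to D, against 225, 313 and 1168 in WT arrays A to C. The 4 T-ETV1 arrays lay within a 1.52-fold range and between the WT arrays, of which the highest was 5.20 times the lowest. The mean log2 value was 8.93 ± 0.26 (SD, n = 4) in T-ETV1 and 8.83 ± 1.22 (SD, n = 3) in WT. Its log2 difference was 0.10 ± 0.53 (adjusted p = 0.989), and without WT C it was 0.80 ± 0.22 (adjusted p = 0.709).

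The effector genes Ifit1, Ifit3 and Rsad2 varied most. Ifit1, whose product binds foreign RNA, had intensities of 390.2, 1327, 115 and 218 in T-ETV1 arrays A to D, against 145, 407 and 1265 in WT arrays A to C. The highest array was 11.6 times the lowest within T-ETV1 and 8.71 times within WT, and in each group 1 array was far above the rest. The mean log2 value was 8.49 ± 1.43 (SD, n = 4) in T-ETV1 and 8.79 ± 1.50 (SD, n = 3) in WT. The difference between these means was -0.30 ± 0.97, with a 95% interval of -2.61 to 2.01 (adjusted p = 0.985), and it was 0.46 ± 0.97 without WT C. Differences of several fold in either direction were thus not detectable with these arrays.

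Ifit3, the partner that stabilises IFIT1 in human cells, had intensities of 66.1, 302, 20.9 and 50.3 in T-ETV1 arrays A to D, against 71.5, 73.5 and 475 in WT arrays A to C. T-ETV1 B and WT C again stood apart, and T-ETV1 C was the lowest of the 7 arrays. Ifit3 had the largest difference of the 8 genes, at -0.81 ± 0.90 (95% interval -2.97 to 1.35; adjusted p = 0.932), and without WT C it was 0.01 ± 0.83. Ifit3b, a close copy of Ifit3 in the mouse, had no probe set of its own here, and whether its transcript adds to the signal was not tested.

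Rsad2, which encodes viperin, an antiviral enzyme, had intensities of 326, 2043, 327 and 466 in T-ETV1 arrays A to D, against 197, 909 and 1406 in WT arrays A to C. Here WT B was high as well as T-ETV1 B and WT C, while T-ETV1 A and C were alike. Its 2 dimmer probe sets also had T-ETV1 B highest and WT A lowest, at 1307 and 69.9 for the brighter of them. In these T-ETV1 C lay below A, at 91.2 against 207 in the brighter one. For the brightest probe set the log2 difference was -0.16 ± 0.88 (adjusted p = 0.989), or 0.40 ± 0.95 without WT C, and it was 0.05 for both dimmer probe sets.

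Oasl2, an oligoadenylate synthetase-like gene, and Usp18 followed another order of arrays within T-ETV1. Oasl2 had intensities of 339.7, 331, 131 and 376 in T-ETV1 arrays A to D, against 247, 197 and 685 in WT arrays A to C. Its T-ETV1 arrays A, B and D were close together and C was low, while T-ETV1 B did not stand out. This gave a log2 difference of -0.23 ± 0.52 (adjusted p = 0.975), and of 0.30 ± 0.43 without WT C.

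Usp18, the ISG15 protease, had intensities of 373, 410.1, 156 and 504 in T-ETV1 arrays A to D, against 207, 137 and 955 in WT arrays A to C. T-ETV1 C, WT A and WT B were the low arrays and WT C the high one. Over all arrays the log2 difference was 0.12 ± 0.70 (adjusted p = 0.991), and without WT C it was 0.91 ± 0.47 (adjusted p = 0.964).

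The probe set shared by Isg15 and Gm9706 had intensities of 289, 258, 421 and 269 in T-ETV1 arrays A to D, against 188, 259 and 744 in WT arrays A to C. T-ETV1 C, the lowest T-ETV1 array in 6 of the other 8 genes, was here the highest of its group. For this probe set the log2 difference was -0.13 ± 0.45 (adjusted p = 0.992 in the fit of every probe set). Without WT C it was 0.43 ± 0.25 (adjusted p = 0.989), in a fit added after the values were seen.

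Within a genotype the spread of these genes was mostly above that of other genes. The residual SD between arrays of a genotype had a median of 0.92 over the 8 genes, on the log2(intensity + 16) scale, beside 0.27 over all genes and 0.33 over the 5248 genes with a mean intensity in the same range. It was 1.46 for Ifit1, 1.36 for Ifit3 and 1.32 for Rsad2, above 97.5%, 96.9% and 96.6% of all genes. Stat2, at 0.28, lay near the middle, above 51.8% of all genes. These are descriptions, since the 8 genes belong to 1 pathway and share the same arrays.

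**Figure D2:**
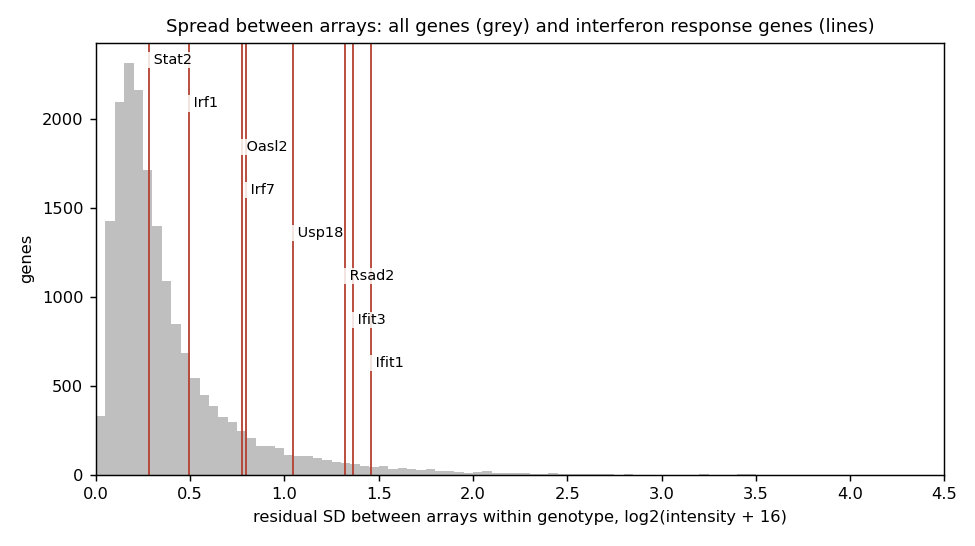
Histogram of the residual SD between arrays within genotype, on the log2(intensity + 16) scale, over 18193 genes (grey), with 1 red line for each of the 8 interferon response genes. Stat2 lies near the bulk of genes, at 0.28, and Ifit1, Ifit3 and Rsad2 lie in the upper tail, at 1.32 to 1.46.

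The replicate letters gave opposite directions. T-ETV1 A was above WT A in 7 of the 8 genes (median log2 difference 0.56, beside -0.02 over all genes), with Ifit3 at -0.09. T-ETV1 B was above WT B in 8 of 8 (median 1.05, beside -0.01 over all genes). T-ETV1 C was below WT C in 8 of 8, with a median of -2.16 (beside -0.05 over all genes) and a range of -3.73 (Ifit3) to -0.56 (Stat2). The C pair thus had a larger median difference than the A and B pairs, in the other direction, and T-ETV1 D has no WT array of its letter.

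As WT C was the highest WT array for all 8 genes, leaving it out could only raise their differences. Without it the difference of all 8 genes was positive, from 0.01 (Ifit3) to 0.91 (Usp18). The median was 0.35, beside 0.00 over all genes. Of the 8, 0 passed, against 0.0385% of all genes in that fit. T-ETV1 C was the lowest T-ETV1 array in 6 of the 8 genes, and without both C arrays the median was 0.64. The differences with the smallest p there were 1.26 ± 0.23 for Usp18 (adjusted p = 0.183), 0.86 ± 0.24 for Irf7 (adjusted p = 0.350), 0.62 ± 0.16 for Oasl2 (adjusted p = 0.309) and 0.42 ± 0.15 for Stat2 (adjusted p = 0.487). The rest were less precise, at 0.95 ± 0.86 for Ifit1, 0.65 ± 1.02 for Rsad2, 0.44 ± 0.72 for Ifit3 and 0.21 ± 0.29 for Irf1. There too 0 of the 8 passed, against 0.374% of all genes.

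**Figure D3:**
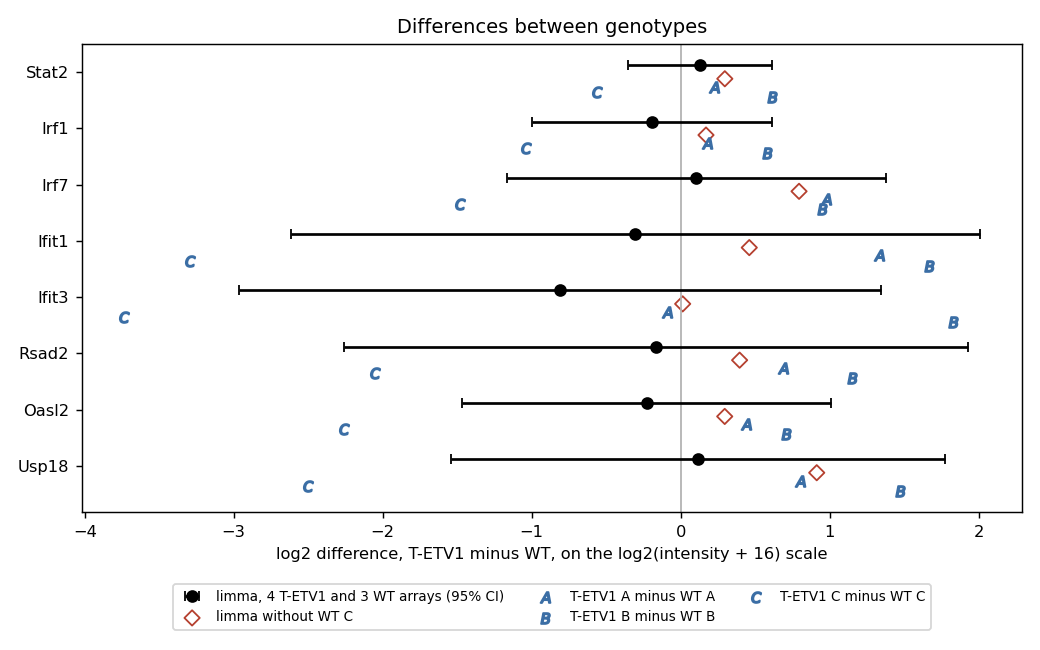
Log2 differences of the 8 interferon response genes, T-ETV1 minus WT, on the log2(intensity + 16) scale. Black points are the limma estimates over all 7 arrays with 95% intervals, open diamonds the estimates without WT C, and blue letters the differences within each replicate letter. Every interval includes 0, and the C pair lies at the left for every gene.

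The correlations between these genes over the 7 arrays are a description. Ifit1 had a Pearson correlation of 0.93 with Ifit3 and 0.90 with Rsad2, and Usp18 had 0.95 with Oasl2. Ifit3 and Rsad2 had 0.79. The correlations of Ifit1, Ifit3 and Rsad2 with Usp18 and Oasl2 ran from 0.45 (Rsad2 with Usp18) to 0.78 (Ifit3 with Oasl2), so they reached nearly as high as that of Ifit3 with Rsad2. The shared probe set of Isg15 had its highest correlation with Irf7 (0.83) and its lowest with Stat2 (0.27). All of these rest on 7 arrays, of which WT C is high for every gene.

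The remaining genes of the pathway were taken from lists by role, of which 113 of 131 genes had a probe set of their own. By limma 0 of the 113 passed in either direction, against 0% of all genes. At an unadjusted p under 0.05 there were 0 higher, against 2% of all genes, and 3 lower (Ifna9, Ifitm1 and Tap2), against 4.12% of all genes. The median log2 difference was -0.12 with 38 of the 113 positive, and without WT C it was 0.079 with 63 positive. Of the 113, 57 had their highest value in WT C, beside 4400 of 18193 genes.

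All 9 measured interferon ligand genes had a mean intensity under 50, and 5 of them had a positive difference, or 6 without WT C. Ifnb1, which encodes interferon beta, stayed between 6.38 and 6.74 in T-ETV1 and between 3.03 and 5.85 in WT. Ifna9 was at 2.38, 2.01, 2.42 and 1 in T-ETV1 arrays A to D, against 29.5, 10.9 and 10.2 in WT arrays A to C (log2 difference -0.82 ± 0.21, adjusted p = 0.646). In both genes the groups did not overlap, at levels close to the lower end of the deposited values. They were 2 of the 9 ligand genes, and over all pathway lists 4 of 113 genes did not overlap, against 6.32% of all genes. Ifng, which encodes interferon gamma, a product of lymphocytes, was at most 8.11 in the T-ETV1 arrays, and in WT it was 102 in array C and 6.55 and 4.94 in the others.

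Among receptors and signalling proteins 0 genes passed. All 6 receptor genes had a negative difference, from -0.27 (Il10rb) to -0.01, but without WT C 3 of the 6 were positive. Ifnar1, which encodes a subunit of the type I receptor, had intensities of 621, 672, 802 and 598 in T-ETV1 arrays A to D, against 619, 838 and 967 in WT arrays A to C (log2 difference -0.24 ± 0.18, adjusted p = 0.882). Ifngr1, of the interferon gamma receptor, differed by -0.20 ± 0.12 (adjusted p = 0.871). The kinase genes Jak1 and Tyk2 each differed by -0.13 (2 of the 4 genes of their list were positive, or 3 without WT C), while Irf9, which encodes the DNA-binding partner of STAT2, differed by 0.14 ± 0.23 (adjusted p = 0.958). Irf9 had 636, 714, 513 and 665 in T-ETV1 arrays A to D, against 489, 457 and 825 in WT arrays A to C, and, as for Stat2, T-ETV1 B was its highest and T-ETV1 C its lowest T-ETV1 array. Of the 6 regulatory factor genes besides Irf1 and Irf7, 2 had a positive difference. The lowest was that of Irf4, a factor of lymphocytes, at -0.97 ± 0.61 (adjusted p = 0.876), with 319 in WT C and at most 45.5 in the other arrays.

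Sensors of viral nucleic acid had 4 of 16 genes with a positive difference, or 7 without WT C, and 0 past the threshold. Tlr3, a receptor for double-stranded RNA, had the smallest p among them (0.29 ± 0.18, adjusted p = 0.876). Ddx58, which encodes RIG-I, had 252, 295, 138 and 209.7 in T-ETV1 arrays A to D, against 266, 232 and 399.6 in WT arrays A to C (-0.41 ± 0.29, adjusted p = 0.881). T-ETV1 C was its lowest and WT C its highest array.

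Of 27 other antiviral effector genes 7 had a positive and 20 a negative difference, with a median of -0.18, and 16 were highest in WT C. Without WT C, 14 of the 27 were positive and the median was 0.0070. Ifitm1, a membrane protein that blocks virus entry, had the largest difference of the list, at -2.40 ± 0.94 (adjusted p = 0.804). Its intensity was 68.8, 11.8, 218 and 32.7 in T-ETV1 arrays A to D, against 185, 188 and 1312 in WT arrays A to C, so that T-ETV1 B, high for Ifit1 and Rsad2, was here the lowest array. T-ETV1 B, the highest of the 7 arrays for Ifit1 and Rsad2, was so for 4 of the 27 (Mx2, Oas1b, Oasl1 and Ifit1bl1, named after their values were seen), beside 3195 of 18193 genes. Mx2, an interferon-induced GTPase that acts against viruses, had 112 in T-ETV1 B and 5.50 in T-ETV1 C, against 35.5 to 80.2 in WT.

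Of 19 other interferon-induced genes 9 had a positive difference, with a median of -0.01, and 13 were highest in WT C. Without WT C, 16 of the 19 were positive and the median was 0.17. Xaf1, an interferon-induced gene that promotes apoptosis, had the smallest p among them. Its intensity was 1206, 743, 669.5 and 1001 in T-ETV1 arrays A to D, against 367, 419.5 and 1160.3 in WT arrays A to C (0.63 ± 0.43, adjusted p = 0.881), and another of its probe sets had the opposite sign. Ifi27l2a was at most 289 in T-ETV1, at 166 and 170.5 in WT A and B, and at 2147 in WT C (-1.01 ± 0.89, adjusted p = 0.910).

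The interferon-induced GTPases, which act on the vacuoles of intracellular pathogens and respond mainly to interferon gamma, had yet another order of arrays. Igtp had 320.4, 512, 597 and 1070.1 in T-ETV1 arrays A to D, against 268, 483 and 775 in WT arrays A to C (0.28 ± 0.48, adjusted p = 0.957). Iigp1, chosen after its values were seen, had 9.14, 59.8, 47.7 and 968 in T-ETV1 arrays A to D, against 31.4, 54.5 and 168 in WT arrays A to C. Of the 8 GTPase genes 5 had a positive difference (median 0.09), or 7 without WT C (median 0.61), and 0 passed. In 0 of the 8 was T-ETV1 B the highest T-ETV1 array, and their median deviation from the 7-array mean was 0.94 in T-ETV1 D and 1.03 in WT C, whereas the interferon response genes had -0.22 and 1.27 there.

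The 3 measured genes that attach ISG15 all had negative differences, and 0 passed. Uba7, which encodes the activating enzyme, had intensities of 1025, 1134, 1057 and 1066 in T-ETV1 arrays A to D, against 1214, 1118 and 1117 in WT arrays A to C (-0.10 ± 0.09, adjusted p = 0.914). Ube2l6, the gene of the conjugating enzyme, was at most 29.2 in any array. In the immunoproteasome and peptide transport list 5 of 8 genes had a negative difference and 0 passed. Tap2, a subunit of the peptide transporter, had -0.35 ± 0.14 and the proteasome subunit gene Psmb10 -0.35 ± 0.15 (adjusted p = 0.804 and 0.819). Of 7 inhibitors 1 had a positive difference, or 2 without WT C. The lowest was that of Socs3, a suppressor of cytokine signalling, at -1.13 ± 0.64 (adjusted p = 0.865), with 284, 341, 507 and 289 in T-ETV1 arrays A to D, against 342, 549 and 2435 in WT arrays A to C. WT C was far above the other arrays there.

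**Figure D4:**
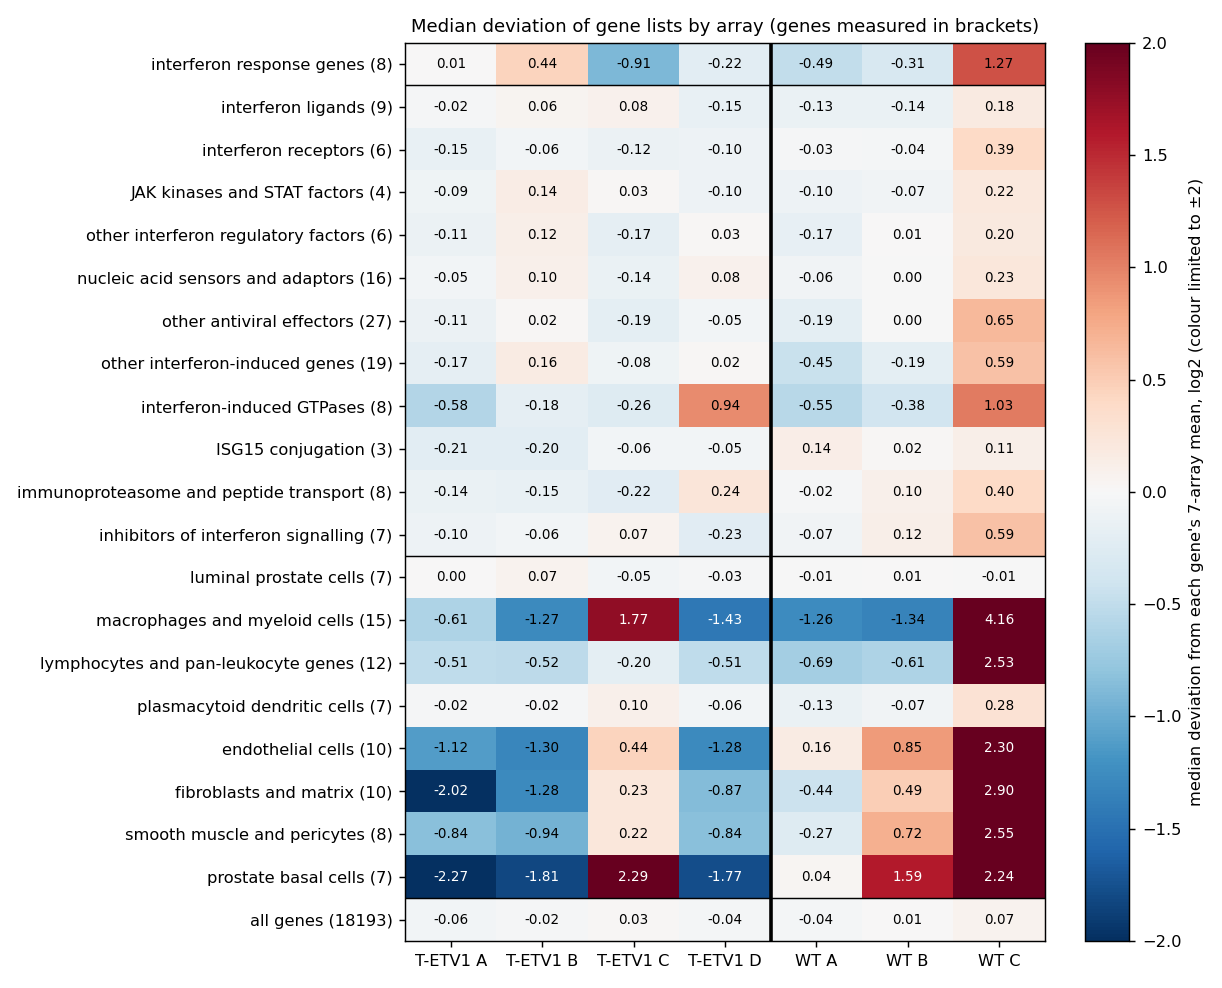
Median deviation of each gene list from the genes' own 7-array means, on the log2(intensity + 16) scale, for 4 T-ETV1 arrays (left of the line) and 3 WT arrays (right). The interferon response genes were at -0.91 in T-ETV1 C and 1.27 in WT C, while macrophage and myeloid markers were above their means in both, at 1.77 in T-ETV1 C and 4.16 in WT C.

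Markers of macrophages, endothelium, fibroblasts, smooth muscle and basal cells were high in WT C and, within T-ETV1, in T-ETV1 C. Of these, only the macrophage markers were low in WT B (median deviation -1.34). In WT B endothelium was at 0.85, fibroblasts at 0.49 and smooth muscle at 0.72, above T-ETV1 C (0.44, 0.23 and 0.22). Basal markers were at 1.59 in WT B and 2.29 in T-ETV1 C. As a set, lymphocyte and pan-leukocyte genes had a median deviation of -0.20 in T-ETV1 C and 2.53 in WT C. The other T-ETV1 arrays were lower, at -0.51 (A), -0.52 (B) and -0.51 (D). For 7 of the 12 genes T-ETV1 C was the highest T-ETV1 array. The interferon response genes were mostly low in T-ETV1 C and were high in WT C, as the markers were there. The summed intensity of 15 macrophage and myeloid genes was 1153, 1001, 11955 and 708 in T-ETV1 arrays A to D, against 567, 1121 and 25749 in WT arrays A to C, and all 15 were highest in WT C. Of the T-ETV1 arrays, T-ETV1 C was the highest for 13 of the 15 genes and T-ETV1 B for 0. In T-ETV1 B the 15 genes ranged from 1 (Adgre1) to 628 (Cd14). Their median deviation was -1.27 in T-ETV1 B, against -0.61 in T-ETV1 A and -1.43 in T-ETV1 D. Cd68, chosen after its values were seen, was at 106 in T-ETV1 B, against 57.5 in T-ETV1 A, 212 in T-ETV1 C and 24.8 in T-ETV1 D. Other genes of the list went the other way, and T-ETV1 B was the lowest T-ETV1 array for 5 of the 15. Lyz2, for example, was at 39.6 in T-ETV1 B, against 147 in T-ETV1 A and 44.8 in T-ETV1 D.

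Lymphocyte and pan-leukocyte genes summed to 189 to 381 in T-ETV1 and to 118, 131 and 4367 in WT arrays A to C. Cd3e of T cells was at 887 in WT C, the array in which Ifng was 102, and at 2.18 and 1.11 in WT A and B. Of the plasmacytoid dendritic cell list, whose cells are a source of type I interferon, the 7 genes summed to 3202 to 5655 in T-ETV1 and to 3001 to 5718 in WT. Its member Siglech, chosen after its values were seen, was at most 12.7 in T-ETV1 and at 8.97, 2.31 and 42.5 in WT arrays A to C. Of the 7 genes, 3 were highest in WT C. Most other genes of that list are not confined to that cell type. Basal cell genes summed to 3296, 3974, 18631 and 4474 in T-ETV1 arrays A to D, against 7497, 13709 and 20725 in WT arrays A to C. Fibroblast genes summed to 3179, 2213, 11007 and 3259 in T-ETV1 arrays A to D, against 5905, 9266 and 31893 in WT arrays A to C. Endothelial genes summed to 511 to 2553 in T-ETV1 and to 1894 to 5443 in WT, and smooth muscle genes to 135 to 823 in T-ETV1 and to 619.8 to 5843 in WT, both highest in T-ETV1 C and WT C within their groups. Luminal markers summed to 52735 to 57962 in T-ETV1 and to 53451 to 55313 in WT, with Pbsn, the prostate protein probasin, between 11930.2 and 12433 in T-ETV1 and between 12111 and 12447 in WT. The part that other cells have in the values of WT C was not tested. All 7 arrays had the marker levels of luminal cells, and both C arrays also had macrophage genes, whose cells carry the CD45 that the sort left out.

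The genes most like the 8 in pattern, by Pearson correlation over the 7 arrays with the mean of their deviations and with a mean intensity of at least 100, were Dner (0.99), Unc93b1 (0.98), Slc16a13 (0.97), Wbp1l (0.97), Csnk1d (0.96), Ankle2 (0.96), Chdh (0.96), Egfr (0.96), Rnf213 (0.96) and Mcl1 (0.96). Unc93b1 carries nucleic acid-sensing Toll-like receptors to endosomes, and Dner is a ligand of Notch in neurons. Dner had 129.7, 285, 52.9 and 124 in T-ETV1 arrays A to D, against 57.9, 138 and 537 in WT arrays A to C, so that T-ETV1 B and WT C were high and T-ETV1 C low. These correlations are the highest found in a search of all genes over only 7 arrays and are a description.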

How the data were processed

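The deposited intensity values, 1 per probe set and array on a linear scale, were used with the scaling the authors gave them. The method that summarised the probes is not given in the sources used here, and 0.605% of deposited intensity values did not exceed 1. RNA was amplified with a NuGEN kit before hybridisation, per the labels' protocols. Array medians were 48.5 to 73.7. With 4 and 3 arrays, precision is limited.

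Values were taken as log2(intensity + 16), so differences of dim genes are understated. Probe sets with 1 gene symbol (34945) were kept, 34741 of which had their symbol brought up to date through the Entrez ID in a RefSeq table (GRCm38.p6). Those with several (932) or none (9160) were left out of the gene fit. The brightest probe set stood for a gene. The fit covered all 18193 genes and used lmFit and eBayes of limma 3.58.1 (R 4.3.3). Tests were two-sided with 6.67 total degrees of freedom, the difference is T-ETV1 minus WT, and the method was tested on simulated data. The members and lists were chosen with earlier results of these data known. Named genes are all members, up to 4 of each pathway list by smallest p, up to 4 of each marker list by mean intensity, and the 10 most alike in pattern, without predicted genes.

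Both groups have replicates lettered A to C. Deviations from the group means correlated at 0.281, 0.217 and 0.356 for the A, B and C pairs. Other pairings ran from -0.320 (T-ETV1 C with WT A) to 0.187 (T-ETV1 D with WT A). The letters were thus taken as possible pairs. A fit with the letter as a block, which leaves out T-ETV1 D, was run beside the unblocked one. The differences given above are from the unblocked fit. Other alternatives were quantile normalization, median centring, pseudocounts of 1 and 64, dropping the dimmest 30% or 50% of genes, averaging the probe sets of each gene, testing each probe set, eBayes with a trend or robust settings, array weights, a threshold of 0.1, and leaving out each array or both C arrays.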

Additional observations from a re-analysis of the deposited data

Results flagged for a closer look

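In 98 genes or probe sets named or summarised here the 4 T-ETV1 arrays were searched for 1 that lies far from the others, by the gap to its neighbour over the range of the group (Dixon's test). Chance gives about 1 such array in 20 groups, and 7 were found. Among the interferon response genes it was Oasl2, with T-ETV1 C low (ratio 0.876, log2 value 7.20). Among the pathway genes it was Cd274, with T-ETV1 C high (0.834), and Ube2l6 and Psmb9, with T-ETV1 D high (0.921 and 0.907). Among markers of other cells it was Ptprc (CD45, 0.867), Cldn5 of endothelium (0.960) and Acta2 of smooth muscle (0.858), each with T-ETV1 C high.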

How the results depend on the processing

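No interferon response gene passed a threshold of 0.05 under any of the 20 alternative fits, nor at 0.1 in the fit of all arrays, and 0 of the 113 other pathway genes passed in any of them. The threshold was never reached, so these counts say nothing about stability. Signs turned in 24 of 159 gene values, of which the following were outside the fits that leave out 1 array. Stat2 was -0.043 with the mean of probe sets, and Oasl2 was 0.34 with array weights, where Usp18 kept its sign at 0.92 and the median of the 8 genes was 0.096. With the replicate letter as a block, a paired fit that leaves out T-ETV1 D, Usp18 was -0.075. It had the same value in the unblocked fit without T-ETV1 D, and the block changed no call. Without both C arrays Irf1 was 0.21, Ifit1 0.95, Ifit3 0.44, Rsad2 0.65 and Oasl2 0.62, the median of the 8 genes was 0.64, and 68 of all genes passed. Leaving out 1 array at a time, values ranged from -1.03 to 0.46 for Ifit1, -1.42 to 0.014 for Ifit3, -0.44 to 0.17 for Irf1, -0.35 to 0.80 for Irf7, -0.56 to 0.30 for Oasl2, -0.97 to 0.40 for Rsad2, 0.029 to 0.30 for Stat2 and -0.42 to 0.91 for Usp18. The highest was without WT C, itself the highest WT array, in each of these 8 genes. The median of the 8 genes ranged from -0.42 (without WT A) to 0.35 (without WT C), and was 0.14 without T-ETV1 C. In fits added after the values were seen, the probe set of Isg15 and Gm9706 was 0.43 without WT C and 0.28 without both C arrays. The number of all genes passed ranged from 0 to 27, with 7 without WT C and 27 without T-ETV1 C. The cause was not tested. Quantile normalization and median centring turned no sign, and centring moved the median of all genes to 0.11 and that of the 8 genes to -0.04. Of the 8 genes, Ifit3 was under the filter that leaves out the lowest 50% of genes and has no value there. That filter left 72 of the 113 other pathway genes to test, and the filter of the lowest 30% left 98.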
